A study of Drosophila melanogaster with 2 samples.

Results

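Tet is a gene of 92952 bp on the minus strand of chromosome arm 3L (FBgn0263392, chr3L:2786207-2879158, dm6). With 10 kb on either side (chr3L:2776207-2889158), it held 30 of the 8015 reproducible peak summits of the transcription factor Ets96B-eGFP in Drosophila prepupae. The members were all peaks with a summit in that window. Besides the 30 reproducible summits these were 83 of 30000 in the pooled list, 78 of 30000 in the list of replicate 2 and 84 of 30000 in the list of replicate 3. Tet was chosen by its number of reproducible summits, so its counts, densities and signal values are given as descriptions with no test.

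The peaks come from chromatin immunoprecipitation followed by sequencing (ChIP-seq) of whole Drosophila melanogaster at the prepupal stage, 24 h of age, males and females together. Both libraries were made from 1 transgenic line that expresses Ets96B with green fluorescent protein at its C terminus, and they form 1 group, labelled biological replicates 2 and 3. The description names an antibody to GFP, while the antibody field names Ets96B. A control alignment entered the authors' peak calls and was not analysed here. The animals mix all cell types, so a peak cannot be assigned to a tissue. With 1 group, the possible comparisons are between the replicates, between parts of the gene and between genes.

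Tet encodes the fly ten-eleven-translocation protein, a member of the iron- and 2-oxoglutarate-dependent dioxygenases. In mammals these enzymes oxidise 5-methylcytosine in DNA. Fly DNA holds very little of that base, and the fly enzyme has been linked to N6-methyladenine in DNA and to 5-hydroxymethylcytosine in RNA, with roles in the nervous system. The longer fly proteins carry a CXXC zinc finger that binds DNA, and the shorter ones lack it. Ets96B is the fly relative of the mammalian PEA3 factors, whose ETS domain recognises DNA around a GGAA core.

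The annotation lists 6 Tet transcripts and 2 start sites, 58055 bp apart. Tet-RA, Tet-RB, Tet-RE and Tet-RF begin at the 5' start, at position 2879158, and encode proteins of 2860 to 2921 residues. Tet-RC and Tet-RD begin at the internal start, at position 2821103, and encode 2056 residues. The internal start lies within intron 4 of the longer transcripts, an intron of 54877 bp. Exons and introns are numbered as in Tet-RA. The 300 bases upstream of each start, from the RefSeq copy of the dm6 assembly, are shown because only the internal one held a reproducible summit within 500 bp. They are on the minus strand, in the direction of transcription, and capitals mark GAGAG or its reverse complement CTCTC, runs of overlapping copies included.
internal start, chr3L:2821104-2821403: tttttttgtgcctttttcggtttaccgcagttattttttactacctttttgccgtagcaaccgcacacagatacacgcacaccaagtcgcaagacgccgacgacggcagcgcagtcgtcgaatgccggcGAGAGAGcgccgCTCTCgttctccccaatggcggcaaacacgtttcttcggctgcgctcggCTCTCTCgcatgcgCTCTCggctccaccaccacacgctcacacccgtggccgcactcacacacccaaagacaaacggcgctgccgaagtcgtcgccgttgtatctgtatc
5' start, chr3L:2879159-2879458: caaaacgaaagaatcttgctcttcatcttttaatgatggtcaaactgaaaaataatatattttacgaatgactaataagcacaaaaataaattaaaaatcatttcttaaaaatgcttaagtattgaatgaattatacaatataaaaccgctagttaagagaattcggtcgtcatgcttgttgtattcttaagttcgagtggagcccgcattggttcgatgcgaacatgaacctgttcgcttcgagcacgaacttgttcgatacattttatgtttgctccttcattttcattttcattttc
The internal promoter was 57.7% G+C and the 5' promoter 32%, against a median of 38.3% over 19276 stretches of the same length upstream of annotated start sites of protein-coding genes. Of the 8 sequence words searched, the internal promoter held GAGAG, present in 32.5% of those stretches, and AAAAAA, present in 50.3%. The 5' promoter held none of the 8 words. The core GGAA, present in 88.2% of those stretches, was in neither Tet promoter as cut at 300 bases. It did occur just upstream of the internal cut, within chr3L:2821320-2821420 around the reproducible summit at 2821370. Its absence from the internal promoter therefore depends on the 300-base length, which was set after the values were seen. The words were CCGGAA and CAGGAA, both longer forms of the ETS core, the core GGAA that they contain, the homeodomain core TAATTA, the GATA factor word GATAAG, the GAGA factor word GAGAG, the DNA replication-related element TATCGATA and the run AAAAAA. Each was searched on both strands.

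Within the gene, the reproducible summits lay in the introns upstream of the catalytic exons. Of the 30 summits, 29 lay in introns, 0 in exons and 1 outside the gene. Introns also make up most of the length of the gene, and the intron share over all reproducible summits was not computed. Intron 4, 48.6% of the window in length, held 22 of the 30 (73.3%). Of those, 15 lay in its upstream 30455 bp, between exon 4 and the internal start. That stretch is 27.0% of the window in length and carried 68.9% of the summed signal of its reproducible peaks. The signal value is the authors' own score per peak. It ranks peaks within 1 list and its scale is not given in the sources used here.

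**Figure D1:**
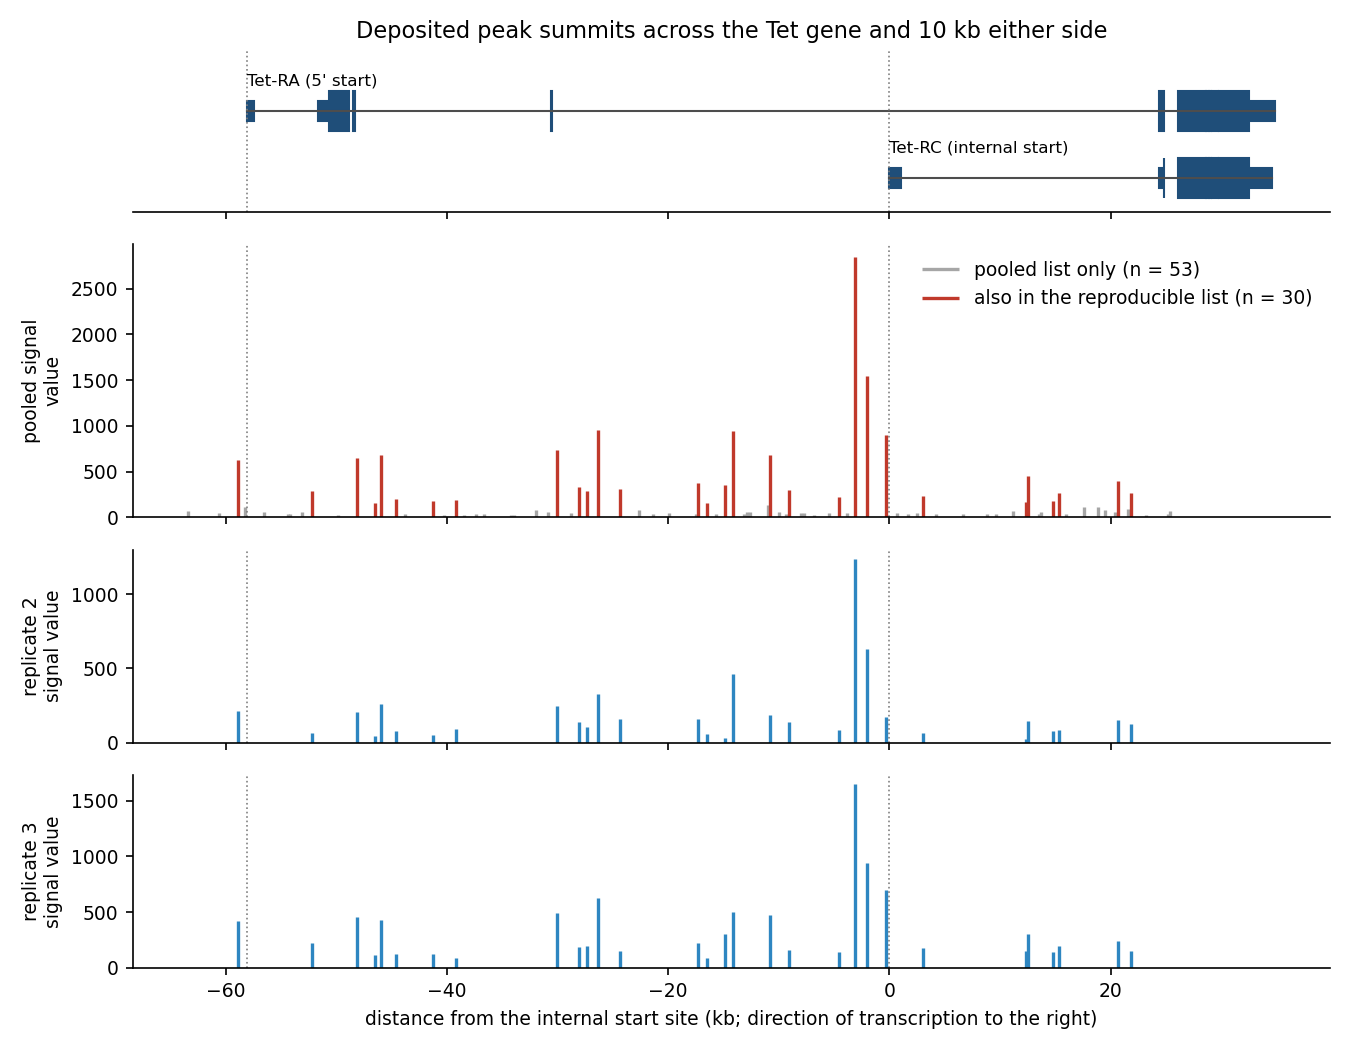
Signal values of deposited peaks (vertical axes) by distance in kb from the internal start site (horizontal axis), with transcription to the right, below models of Tet-RA and Tet-RC in which tall boxes are coding and low boxes non-coding exon parts. In the pooled panel red lines are the 30 peaks of the reproducible list and grey lines the other 53; the replicate panels show the peak of each replicate that overlaps each reproducible peak, and the tallest line of all 3 panels stands 3092 bp upstream of the internal start.

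By density, the upstream part of intron 4 held 0.493 reproducible summits per kb (95% exact Poisson interval 0.276 to 0.812). The downstream part of intron 4 held 7 in 23377 bp, 0.299 per kb (0.120 to 0.617). Intron 3 held 6 in 17752 bp, 0.338 per kb (0.124 to 0.736). These intervals overlap, so the 3 stretches cannot be ordered by density. They cover counting error only. Intron 1 held 1 summit in 5782 bp and the upstream flank 1 in 10 kb. The 10475 bp from the exon that follows intron 4 to the end of the gene, which include the exons for the catalytic region, held 0 reproducible summits (interval up to 0.352 per kb) and 2 pooled ones. The downstream flank held 0 in the reproducible list and 0 in the pooled list (interval up to 0.369 per kb). Over the whole arm 3L the density was 0.0657 per kb.

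**Figure D2:**
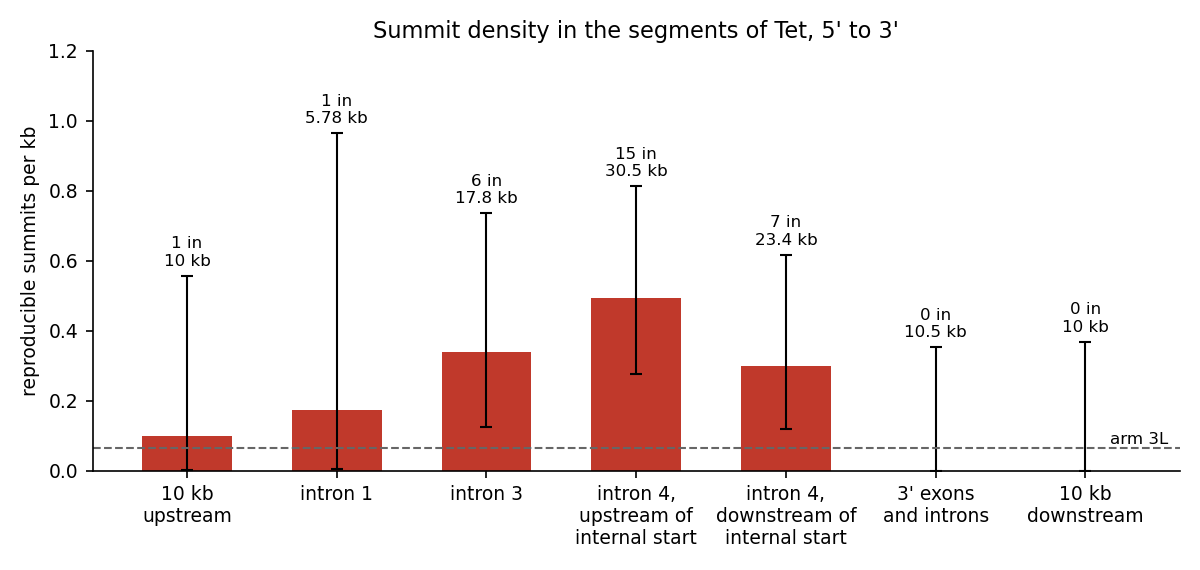
Reproducible summits per kb (vertical axis) in segments of Tet from 5' to 3' (horizontal axis), with bars for the density, error bars for the 95% exact Poisson interval and the count and length printed above each. The dashed line is the density of arm 3L, 0.0657 per kb; the upstream part of intron 4 reached 0.493 per kb, and no summit lay in the 3' exons and introns or in the downstream flank. Intron 2 and the internal first exon, with 0 summits each, are not drawn.

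The strongest peaks stood just upstream of the internal start. The peak with its summit at position 2824195, 3092 bp upstream of that start, had a signal value of 2847 in the pooled list, where it ranked 46. It ranked 31 in replicate 2, with a signal value of 1241, and 61 in replicate 3, with 1648. The next strongest, at 2823144 and 2041 bp upstream of the same start, had 1546 and rank 287, with 632 and rank 241 in replicate 2 and 938 and rank 316 in replicate 3. Both peaks were within the strongest 316 of every list. In all, 5 reproducible summits lay within 5 kb of the internal start, 4 upstream and 1 downstream. The 101 bases around each of these 2 summits are shown with those of the 2 strongest summits further from the internal start. All are on the minus strand, and none held a word that capitals mark here, which are all of the 8 except GGAA and AAAAAA.
summit 2824195, chr3L:2824145-2824245: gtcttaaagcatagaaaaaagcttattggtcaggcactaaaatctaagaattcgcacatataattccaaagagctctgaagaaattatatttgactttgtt
summit 2823144, chr3L:2823094-2823194: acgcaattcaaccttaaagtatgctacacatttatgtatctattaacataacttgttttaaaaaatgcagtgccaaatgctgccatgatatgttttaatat
summit 2847456, chr3L:2847406-2847506: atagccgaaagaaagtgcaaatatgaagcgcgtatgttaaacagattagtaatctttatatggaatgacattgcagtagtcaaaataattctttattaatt
summit 2835208, chr3L:2835158-2835258: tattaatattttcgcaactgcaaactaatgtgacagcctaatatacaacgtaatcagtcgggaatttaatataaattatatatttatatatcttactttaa

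The summit at 2821370 lay 267 bp upstream of the internal start, the only reproducible one within 500 bp of a Tet start. Over all protein-coding genes, 2863 of 13968 (20.5%) had a reproducible summit that close to a start. Its peak had a signal value of 897 and rank 870 in the pooled list. It ranked 2400 in replicate 2, with 174, and 577 in replicate 3, with 701. Both replicates called it, with summits 2 bp apart, and its rank was better in replicate 3. The depth of each replicate is unknown, so a difference in rank between them has no check of depth. The 5' start had no reproducible summit within 500 bp. A pooled summit at 2879351, 193 bp upstream, had a signal value of 113 and rank 10129, with ranks 7598 in replicate 2 and 11257 in replicate 3. Among the 8015 strongest peaks of replicate 2 alone, 2 summits therefore lay within 500 bp of a Tet start, and among those of replicate 3 alone, 1. The nearest reproducible summit to the 5' start was at 2879955, 797 bp upstream, with 625 and rank 1577, and ranks 1829 and 1402 in replicates 2 and 3.

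Most summits were far from either start, as is most of the window. Of the 30, 24 lay over 5 kb from both starts. The window is 112.952 kb long and holds 2 Tet starts, so most of its length also lies that far from both. Whether the summits differ from that layout was not tested. Of the 10 strongest peaks, 6 belonged to these distant summits. Among them, 2847456 had a signal value of 952 and lay 26353 bp upstream of the internal start. It ranked 968 in replicate 2 and 722 in replicate 3. The peak at 2835208 had 944 and lay 14105 bp upstream of the same start, with ranks 496 and 1072. The peaks at 2851169 and 2831850, also in intron 4, had 736 and 678. The former lay close to the exon 4 end of the intron, and the ranks were 1501 and 1100 for it and 2180 and 1183 for the latter. In intron 3, the peak at 2867067 had 682, with ranks 1395 and 1369, and the peak at 2869215 had 653, with ranks 1886 and 1276. All of the 10 strongest were within the first 2400 of both replicates. No annotated gene is nested in Tet, and 0 of the 30 summits lay in another annotated gene or within 500 bp of the start of one.

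By rank, the Tet peaks ran from 46 to 7822 of 8015. Their median signal value was 317.74, from 152 to 2847, against a median of 293 over all reproducible peaks, which ran from 148 to 5811, and 17 of the 30 Tet peaks exceeded that median. In the ranking, 5 were among the strongest 1000, 10 in the strongest 25% and 7 in the weakest 25%. Median peak width was 276 bp against 310 bp. The median G+C content of the 101 bases around the summit was 31.2% against 29.7%. Neighbouring summits stood closer together than in the list as a whole, with a median gap of 1774 bp against 4966 bp, which follows from the number of summits that chose the gene. Joining summits up to 1 kb apart gave 23 groups, of which 17 were single summits and 6 held more. The longest gaps inside the gene were 9324 bp, downstream of the internal start, and 9139 bp, across exon 4.

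At the threshold of the reproducible list, the weakest Tet peak inside it was at 2837593, with a signal value of 152, rank 7822 in the pooled list and ranks 8091 and 8770 in replicates 2 and 3. The strongest pooled peak outside it was at 2832060, with 129 and rank 9028, and ranks 4565 and 10508. It is a second summit of the interval chr3L:2831635-2832146, which is in the reproducible list with the summit at 2831850, and not a separate region. The reproducible list holds the 8015 strongest pooled peaks, so the share of pooled peaks in it describes pooled signal only. Of the 83 pooled peaks at Tet, 30 (36.1%, 95% exact Clopper-Pearson interval 25.9 to 47.4) were in the reproducible list, against 26.7% of all pooled peaks. Of the 53 others, 48 lay in introns, 2 in exons and 3 outside the gene. A peak overlapped them in both replicates for 36, in neither for 1, and was missing in replicate 2 for 14 and in replicate 3 for 4, that 1 counted in both. One replicate peak could be counted for more than 1 pooled peak, so the 36 can overstate separate support. For example, the pooled peak at 2830408, with 36.2, had the same replicate 3 peak as the reproducible one at 2830206.

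The replicates placed the reproducible Tet peaks alike. The authors kept this list by a threshold on reproducibility, so some agreement between the replicates is built into it. All 30 overlapped a peak in both replicate lists, as did 7901 of all 8015. The replicate summits stood a median of 17.5 bp apart, and 29 of 30 pairs were within 100 bp. Over all reproducible peaks with a peak in both lists the median was 24 bp and 94.6% were within 100 bp. The ranks of the 30 peaks correlated between replicates with a Spearman rho of 0.796, against 0.797 over 7901 reproducible peaks. The points share libraries, so this is a description. In the full lists, 64 of the 78 replicate 2 peaks (82.1%, 71.7 to 89.8) overlapped a replicate 3 peak by at least 1 bp, against 77.1% in the whole list. In the other direction the count was 65 of 84 (77.4%, 67.0 to 85.8), against 75.4%. The strongest Tet peaks without a partner ranked 13824 in replicate 2 and 11505 in replicate 3.

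**Figure D3:**
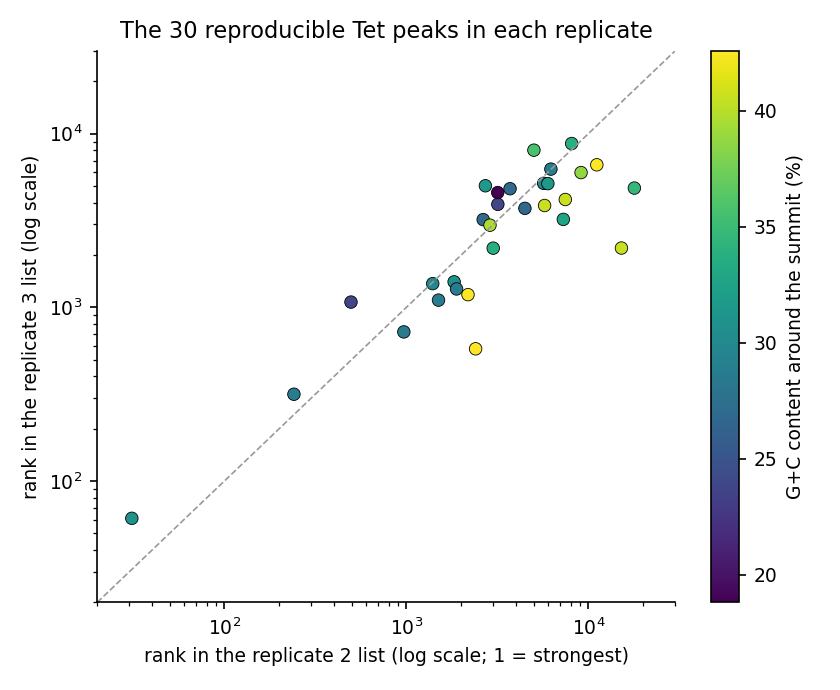
Rank of each of the 30 reproducible Tet peaks in the replicate 2 list (horizontal, log scale) and the replicate 3 list (vertical, log scale), where 1 is the strongest, with colour for the G+C content of the 101 bases at the summit. The dashed line marks equal ranks; 18 of the 30 points (60%) lie below it, with a better rank in replicate 3, as did 4298 of 7901 reproducible peaks (54.4%), and the point nearest the origin is the peak at 2824195, ranked 31 and 61.

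The largest disagreements between replicates were in intron 4, which also held 73.3% of the reproducible Tet summits. The peak at 2835933 ranked 15189 in replicate 2 and 2194 in replicate 3, with signal values of 31.7 and 306. The peak at 2808741 ranked 17888 and 4859, with 26.3 and 154. With the promoter peak at 2821370 and the intron 1 peak at 2873292, ranked 7282 and 3208, these were the 4 peaks whose rank was better in replicate 3 by 2-fold or more. The peak at 2835208 was the 1 with the opposite order. The 4 had 32.7% to 42.6% G+C at the summit and the other one 23.8%. The 25 peaks with ranks within 2-fold ran from 18.8% to 42.6%, a range that includes all of these values. The limit of 2-fold and the G+C content were looked at after the values were seen.

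Few Tet summits held a full ETS word. Within 50 bp of the summit, CCGGAA was found at 1 of 30 (3.33%, 0.0844 to 17.2), against 1.12% of all reproducible summits, and CAGGAA also at 1 of 30, against 2.97%. The shorter core GGAA was found at 15 of 30 (50%, 31.3 to 68.7), against 47.8%. The intervals for all 3 words include the share over the list. The 2 summits with a longer word are shown on the minus strand, with the word or its reverse complement in capitals.
summit 2825621, chr3L:2825571-2825671: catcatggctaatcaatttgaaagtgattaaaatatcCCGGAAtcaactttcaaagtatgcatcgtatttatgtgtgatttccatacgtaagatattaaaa
summit 2835933, chr3L:2835883-2835983: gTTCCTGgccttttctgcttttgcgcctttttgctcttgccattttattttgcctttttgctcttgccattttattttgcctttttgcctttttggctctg
The first, 4518 bp upstream of the internal start, had a signal value of 222 and ranks 5678 and 5173 in replicates 2 and 3. The second is the peak with the widest difference between replicates. Of the other words, TAATTA was found at 2 of 30 summits (6.67%, 0.818 to 22.1) against 11.0% of all. GATAAG was also at 2 of 30, against 5.17%. GAGAG was at 4 of 30 (13.3%, 3.76 to 30.7) against 10.2%. TATCGATA was at 0 of 30, which allows a share of up to 10% by a limit of 3 counts and 11.6% by the exact interval, against 0.524%. AAAAAA was at 14 of 30 (46.7%, 28.3 to 65.7) against 30.9%. Each of these intervals also includes the share over the list. A match is a description of the letters and not a binding site.

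Among genes of like length, Tet had the most reproducible summits. The 185 other protein-coding genes between 2/3 and 1.5 times its length, 62.1 to 139 kb, had a median of 3 reproducible summits each, and 44 of them had 0. Tet had 29 inside the gene, 0.312 per kb (0.209 to 0.448), against a median of 0.0379 per kb. Of the 185, 1 (0.541%) had a density as high, Tlk, which encodes Tousled-like kinase, with 22 summits in 69764 bp or 0.315 per kb. By count Tet was first in the reproducible list and in the 8015 strongest peaks of each replicate, with 26 and 27 in replicates 2 and 3. It was also first by density of pooled peaks, 0.850 per kb against a median of 0.203. Over all 13968 protein-coding genes, 1 had more reproducible summits, while 101 were longer. Tet was chosen by this count, and its place is given as a description.

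**Figure D4:**
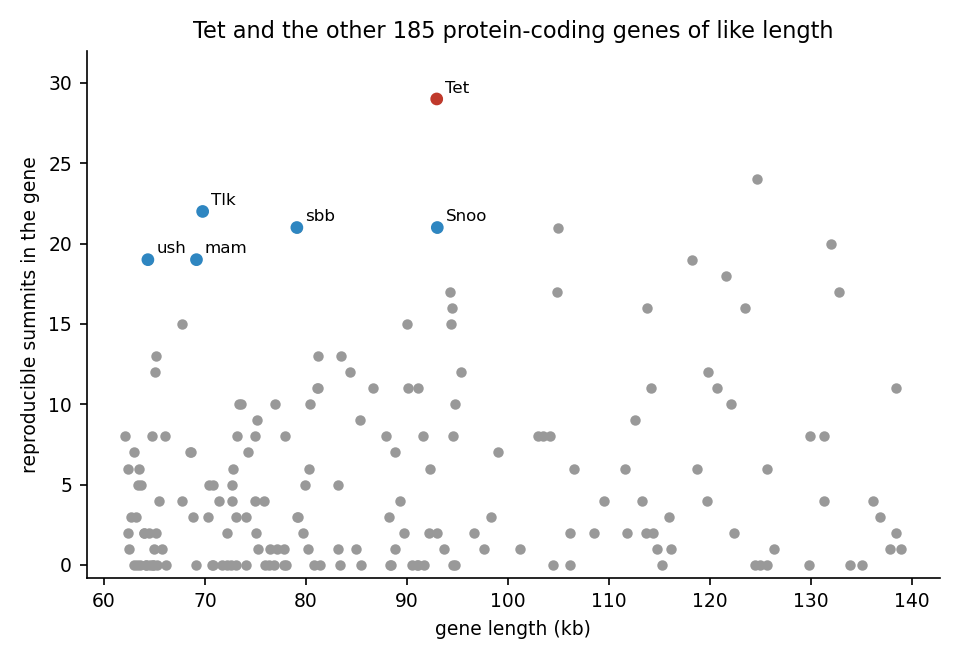
Reproducible summits inside the gene (vertical axis) by gene length in kb (horizontal axis) for Tet (red) and the other 185 protein-coding genes of like length (blue where named, otherwise grey). Tet, with 29, lies above all others, and 44 of the others lie at 0.

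The genes nearest to Tet in density, after Tlk, were ush, which encodes a partner of GATA factors, with 0.295 summits per kb, mam, the Notch coactivator Mastermind, with 0.275, sbb, a nuclear regulator, with 0.265, and Snoo, the fly Ski and Sno homologue, with 0.226. The interval of Tet includes all 5, so their order cannot be told from these counts. They differed in where the summits lay. In Tet 82.8% of the summits were over 5 kb from a start of the gene, in sbb 85.7% and in Snoo 95.2%, whereas the share was 42.1% in mam, 36.8% in ush and 9.09% in Tlk. Tlk has 8 start sites in 69764 bp and Tet has 2 in 92952 bp, and the part of this spacing in the shares was not tested. The strongest peak of ush, 4906 and rank 5, exceeded that of Tet, and no other gene of like length had one stronger. The median signal value was higher in 46 of the 141 others with a summit, which places Tet lower by peak strength than by number.

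On the downstream side, Pgant6, mRpS35 and Atg2 lie within 10 kb, and their parts of the window held 0 summits in the reproducible, pooled and replicate lists. Pgant6 encodes a mucin-type glycosyltransferase, mRpS35 a mitochondrial ribosomal protein and Atg2 an autophagy protein. The next reproducible summit, at 2774110, was 228 bp from the start of Atg2, had a signal value of 956 and rank 784, and lay 2097 bp outside the window. On the upstream side lie lncRNA:CR44531 and spz5, which encodes a neurotrophin-like ligand. Their parts of the window held 0 reproducible summits, and spz5 held 1 pooled summit, at 2884540 with a signal value of 68.6 and rank 15185. The last reproducible summit inside the downstream edge was at 2799292, with 269.8 and rank 4393, in intron 4. The next one beyond the upstream edge was at 3035521, with 160 and rank 7457, so 155566 bp separated it from the summit at 2879955.

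A list of other genes around nucleic acid methylation had a share of occupied members close to that of all genes. Occupied here means a reproducible summit at most 500 bp from a start of the gene. The list holds 20 genes around DNA and RNA methylation, not all of them writers, readers or erasers. Of the 20, 4 were occupied (20%, 5.73 to 43.7), against 20.5% of all protein-coding genes. These were Nsun5, an RNA cytosine methyltransferase, with a signal value of 582, fl(2)d and Hakai, members of the RNA adenosine methylation complex, with 271 and 169, and MBD-like, a methyl-CpG-binding domain protein, with 254. Among the strongest 8015 peaks of replicate 2 alone the count was 8, and of replicate 3 alone 3, so it rests on the replicate used. The share over all protein-coding genes was not computed for either replicate alone, so this shift cannot be set against that of other genes. Mettl3 and Mettl14, the catalytic and supporting subunits of that complex, had no summit at a start in any of these 3 sets. The gene jumu held 4 summits in its body and 0 at a start.

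Of 13 further 2-oxoglutarate dioxygenase genes, 5 were occupied (38.5%, 13.9 to 68.4), and the interval includes the 20.5% of all genes. JMJD6 had a signal value of 414 at its start, Hph, the HIF prolyl hydroxylase, 334, JMJD7 247, and the histone demethylase genes Kdm2 and Kdm4B 236 and 230. The counts were 6 in replicate 2 alone and 7 in replicate 3 alone, again without a share over all genes for these peak sets. Within its body Kdm2 held 7 summits, the most of any listed gene, against 29 in Tet.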

How the data were processed

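Per the labels and description files deposited with the peaks, the authors called peaks on dm6 for each replicate against a control alignment and on both replicates pooled. They kept those past an irreproducible discovery rate threshold as the reproducible list. All 8015 of its peaks are in the pooled list, where their worst rank is 8015. The reproducible list is therefore the 8015 strongest pooled peaks by signal value. A place in it does not show that each replicate ranked the peak as high. Aligner, caller and cut-off are not given in the sources used. Each peak has the authors' signal value, used to rank peaks within a list, and a deposited −log10 q-value, which was 4.42 for every reproducible peak and ranked none. The other 3 lists hold exactly 30000 peaks each, so the depth is unknown.

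Summits were placed on the Ensembl release 115 annotation, 1-based, with Python 3.11.15, numpy 2.4.6, pandas 2.3.3, scipy 1.17.1 and matplotlib 3.10.9. Counting was tested on simulated data, where all 200 genes came back with their known counts. Densities have exact Poisson and shares exact Clopper-Pearson 95% intervals, which cover counting error only. Counts for a replicate alone use the 8015 strongest peaks of its list, while ranks, overlaps and summit distances use all 30000. Whether the replicates shared animals is not given, so their spread may be partly technical.

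The member, the lists and the words were chosen with earlier results of these data known. Named peaks are the 10 strongest reproducible summits, those within 500 bp of a start, those at the list threshold and those beside the window edges. Named genes are those that overlap the window, the 5 of like length with the highest density and the 5 nearest to Tet, and the occupied members of the 2 lists. Other peaks and genes named were chosen after their values were seen. The 300-base promoter length and the distance of 5 kb from a start were also set then. Alternatives were each replicate alone, stronger and weaker peak sets, other windows, distances and overlaps. The 2 that repeated the words and the gene lists by replicate were added after seeing the data.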

Additional observations from a re-analysis of the deposited data

How the results depend on the processing

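Of 65 alternative settings, 46 left a value within 1.5 times for a count, or within the replicate spread or counting interval for others. The other 19 moved it further. No paired analysis was possible because there is 1 group. With either replicate left out, the count of summits at Tet was 28 to 28 and the density 0.280 to 0.290 per kb. The percent of genes of like length with a higher density was then 0.541 to 1.08, the number of groups 22 to 22 and the rank of the strongest summit 31 to 61. The count within 500 bp of a start was 1 to 2, that of occupied methylation genes 3 to 8 and that of dioxygenase genes 6 to 7. For the gene lists, the share over all genes was not computed for either replicate alone. With only the stronger 50% of the reproducible list, 17 summits lay at Tet, the density was 0.172 per kb and 1.08% of genes of like length had a higher one. With all pooled peaks, the values were 83 summits, 0.850 per kb, 0% and 38 groups. Joining summits up to 2000 bp apart gave 14 groups. Within 200 bp of a start there were 0 summits and within 1000 bp there were 2. The share of replicate 2 peaks at Tet with a replicate 3 partner fell to 55.1% with a reciprocal overlap of 50% and to 62.8% with summits within 100 bp, where the whole list had 59.6% and 56.8%. With 100 bp on either side of the summit, GGAA was found at 73.3% and GAGAG at 36.7% of Tet summits, against 73.6% and 22.9% of all; these windows are longer, and the cause was not tested for the other changes. With 2 replicates of unknown depth, signal values can be compared within a list only, and differences in rank between the replicates have no check of depth.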

Other observations

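These values were looked at after the data were seen, and nothing here was tested. Across the 30 reproducible Tet peaks, the G+C content of the 101 bases at the summit correlated with the log2 ratio of the replicate 2 rank to the replicate 3 rank with a Spearman rho of 0.629. Over 7901 reproducible peaks it was 0.208. The points share the same pair of libraries, whose depth is unknown. At Tet, the 4 peaks that ranked better in replicate 3 by 2-fold or more had a median of 37.6% G+C, and the 25 peaks within 2-fold had 30.7%.

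The 155566 bp between the summit at 2879955 and the next reproducible summit upstream was 10th in length among the 1845 gaps on arm 3L. It holds 12 protein-coding genes, among them the potassium channel gene Shab, the odorant receptor gene Or63a, the carnitine palmitoyltransferase gene CPT2 and aly, a regulator of spermatocyte transcription. It held 3 pooled summits, with a highest signal value of 68.6. The stretch downstream of the last Tet summit was 25182 bp long and 226th among the gaps.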
